A study of Arabidopsis thaliana with 4 samples.

Results

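The genes described here are 50 of the 32538 genes in the deposited table, chosen by name as enzymes that make the lipids of cutin, suberin and wax. They are 17 KCS genes, 5 CER genes, 9 LACS genes, 10 CYP86 genes of the A to C subfamilies, 8 GPAT genes and HHT1. The RNA came from etiolated hypocotyls, the seedling stems, of Arabidopsis thaliana. Seeds germinated for 24 hours on half-strength MS medium, and seedlings then stood in darkness at 22 °C up to an age of 5 days before mRNA libraries were sequenced. The mutant shr-2, in the Col-0 background, gave 2 libraries, and wild type Col-0 gave 2 libraries, described in the design as biological duplicates. SHR encodes a mobile GRAS transcription factor needed to form the endodermis, the cell layer around the vascular tissue, and shr-2 is an allele of it. The series compared mutant with wild type.

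Cutin and wax form the cuticle that seals the outer face of epidermal cells, and suberin is a related polyester that the root endodermis and periderm lay into their walls. Both start from fatty acids that long-chain acyl-CoA synthetases (LACS) activate and that 3-ketoacyl-CoA synthases (KCS) lengthen in the endoplasmic reticulum. CYP86 cytochromes oxidise the end of the chain, GPAT enzymes join it to glycerol, and HHT1 adds ferulate to suberin acids. Of the CER proteins, CER1 and CER3 make the alkanes of wax, and CER2 and CER26 act with the elongases. The families also hold members that work elsewhere, such as LACS6 and LACS7 in peroxisomes and GPAT9 in membrane and storage lipid synthesis.

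Titles placed the libraries in their groups, although a genotype field of the mutant libraries reads SCL28-OX #10 and a tissue field reads root tip for all 4. SHR stood at 2.57 and 3.45 FPKM in the shr-2 libraries, against 28.4 and 28.9 FPKM in the Col-0 libraries. SHR was called lower (limma, log2 fold change -2.90, adjusted p = 0.00049). SCL28 stood at 5.81 and 5.57 FPKM in shr-2, against 5.00 and 5.24 FPKM in Col-0. The 3 root hair markers reached at most 0.0928 FPKM and the 3 seed markers at most 0.147 FPKM in any library. FPKM is a fragment count divided by transcript length and library size, so levels can be compared between genes. The 6 endodermis markers summed to 19.2 and 22.0 FPKM in shr-2, against 457 and 544 FPKM in Col-0. The 5 epidermis markers summed to 630.2 and 854 FPKM in shr-2, against 463 and 630.2 FPKM in Col-0, and LTP1 alone of them was called (higher, limma, adjusted p = 0.0012). Across all genes tested the Pearson correlation of log2(FPKM + 1) was 0.981 between the shr-2 libraries, 0.984 between the Col-0 libraries and 0.900 to 0.911 between genotypes.

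The stretches of genome below run from 250 bases before to 50 bases after the annotated start of a gene, 5′ to 3′ on the strand of the gene, in the TAIR10.1 build that RefSeq provides. HHT1, CYP86A1 and GPAT5 are shown because these suberin genes read lower in both shr-2 libraries, GPAT4 and GPAT8 because they are close copies whose ratio differed between genotypes, and KCS2 because it had the largest increase of the set. Capitals mark the motifs searched on both strands, and none of the matches printed overlaps another.
HHT1 promoter, chr5:16431054-16431353, plus strand: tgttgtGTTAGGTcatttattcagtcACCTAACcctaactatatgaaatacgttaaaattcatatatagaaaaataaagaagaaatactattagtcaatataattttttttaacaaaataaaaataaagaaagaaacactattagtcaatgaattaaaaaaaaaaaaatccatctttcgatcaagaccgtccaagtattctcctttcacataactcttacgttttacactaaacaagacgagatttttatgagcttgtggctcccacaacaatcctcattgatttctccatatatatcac
CYP86A1 promoter, chr5:23768062-23768361, minus strand: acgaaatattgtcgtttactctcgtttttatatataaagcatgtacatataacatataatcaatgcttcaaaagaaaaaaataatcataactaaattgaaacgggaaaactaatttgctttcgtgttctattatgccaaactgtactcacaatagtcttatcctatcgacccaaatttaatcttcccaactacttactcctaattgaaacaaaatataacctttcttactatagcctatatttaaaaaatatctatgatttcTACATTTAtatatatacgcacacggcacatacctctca
GPAT5 promoter, chr3:3595444-3595743, plus strand: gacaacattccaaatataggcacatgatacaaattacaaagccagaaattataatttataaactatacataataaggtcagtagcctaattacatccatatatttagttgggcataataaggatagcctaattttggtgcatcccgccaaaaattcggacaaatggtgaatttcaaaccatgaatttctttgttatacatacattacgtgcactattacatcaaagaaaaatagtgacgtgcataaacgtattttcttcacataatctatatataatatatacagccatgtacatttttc
GPAT4 promoter, chr1:224302-224601, minus strand: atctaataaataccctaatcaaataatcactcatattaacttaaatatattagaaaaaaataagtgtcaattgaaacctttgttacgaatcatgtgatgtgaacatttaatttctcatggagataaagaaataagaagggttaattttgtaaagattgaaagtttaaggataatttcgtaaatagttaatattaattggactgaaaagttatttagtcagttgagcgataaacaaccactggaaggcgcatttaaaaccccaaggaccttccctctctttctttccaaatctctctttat
GPAT8 promoter, chr4:176821-177120, minus strand: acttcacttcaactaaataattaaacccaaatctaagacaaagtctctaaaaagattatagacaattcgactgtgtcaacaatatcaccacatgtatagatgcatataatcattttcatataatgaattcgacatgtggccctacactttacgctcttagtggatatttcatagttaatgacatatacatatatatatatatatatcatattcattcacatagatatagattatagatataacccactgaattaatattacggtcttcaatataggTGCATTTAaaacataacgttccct
KCS2 promoter, chr1:1122737-1123036, minus strand: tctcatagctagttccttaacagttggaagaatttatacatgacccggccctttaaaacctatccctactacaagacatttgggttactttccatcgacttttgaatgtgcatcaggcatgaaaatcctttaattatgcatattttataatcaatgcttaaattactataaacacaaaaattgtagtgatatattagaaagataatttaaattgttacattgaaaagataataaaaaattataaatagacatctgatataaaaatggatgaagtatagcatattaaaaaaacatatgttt
The motifs were the L1 box of epidermal genes (TAAATGCA or TAAATGTA), the AC elements read by many MYB factors (ACCTACC with the variant forms ACCAACC and also ACCTAAC) and TTTTGTC, a core read by IDD zinc fingers. HHT1 held ACCTAAC once on each strand, from -224 to -218 and from -244 to -238, with the first transcribed base counted as 1. CYP86A1 held TAAATGTA and GPAT8 held TAAATGCA, each on the opposite strand and after the start, from 13 to 20 and from 27 to 34. KCS2, GPAT4 and GPAT5 held none of the 6 in this window. An L1 box was found at 6 of the 50 genes (12.0%), against 4.89% of 32536 promoters of the same length, and an AC element at 7 (14.0%), against 7.25%. TTTTGTC was found at 6 (12.0%), against 14.6%.

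**Figure D1:**
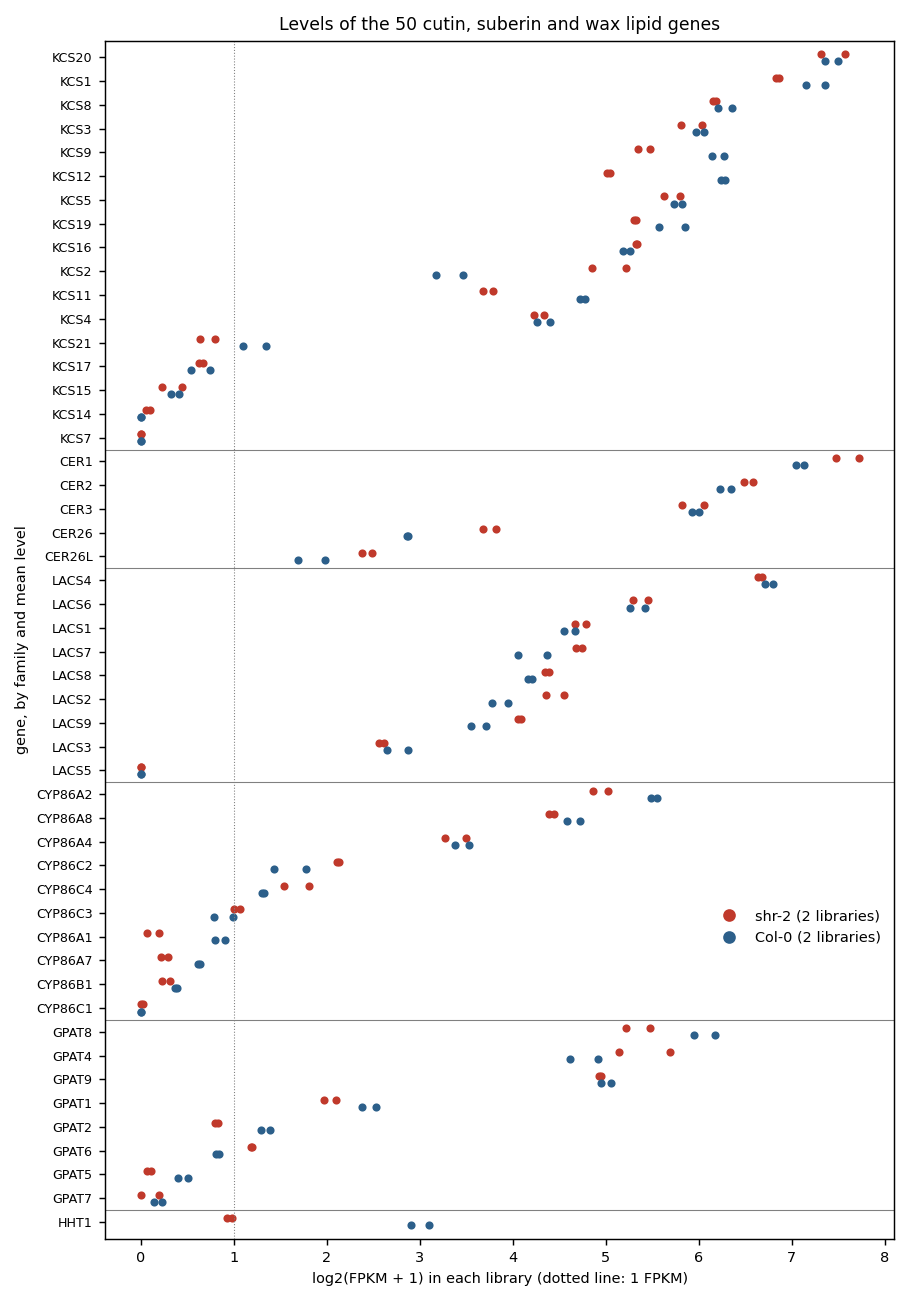
Levels of all 50 genes as log2(FPKM + 1), 1 point per library, with shr-2 (red) above Col-0 (blue) in each row and families separated by lines. KCS20, KCS1 and CER1 were among the highest, 13 genes averaged under 1 FPKM (dotted line), and the genotypes lie far apart in KCS2 and HHT1.

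Together the 50 genes made up 0.197% and 0.206% of all FPKM in the shr-2 libraries, against 0.213% and 0.219% in the Col-0 libraries. Of them, 37 averaged 1 FPKM or more across libraries and were tested, 4 of which averaged over 100 FPKM (KCS20, KCS1, CER1 and LACS4). The other 13 reached at most 1.53 FPKM in any library, and 2 of these were listed at 0 in all 4 libraries. In the mutant 7 rose and 8 fell, that is 15 of 37, or 40.5%, where 27.6% of all 19920 genes tested were called (limma, Benjamini-Hochberg adjusted p under 0.05). Over all genes tested, 13.9% were called higher and 13.7% lower, and at an unadjusted p under 0.05 the shares were 20.5% higher and 20.0% lower. The median log2 fold change of FPKM + 1 was -0.05 over the 37 genes and 0.01 over all genes tested. Both libraries of one genotype lay beyond both of the other in 29 of the 37 genes, against 66.2% of all genes tested. Only 5 of the 15 changes were larger than 2-fold in the ratio of means, those of KCS2, KCS11, KCS12, GPAT2 and HHT1. Of these, GPAT2 and HHT1 averaged under 1 FPKM in shr-2 and reached the filter only through Col-0. The authors' deposited table held a finished test for 42 of the 50, with 9 higher and 9 lower calls, where 24.8% of all genes it tested were called (12.6% higher and 12.2% lower). Of the calls, 13 were made in both analyses. The number called higher here was 5 without shr-2 replicate 1 and 2 without any one of the other libraries, and the number called lower was 3 to 6.

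**Figure D2:**
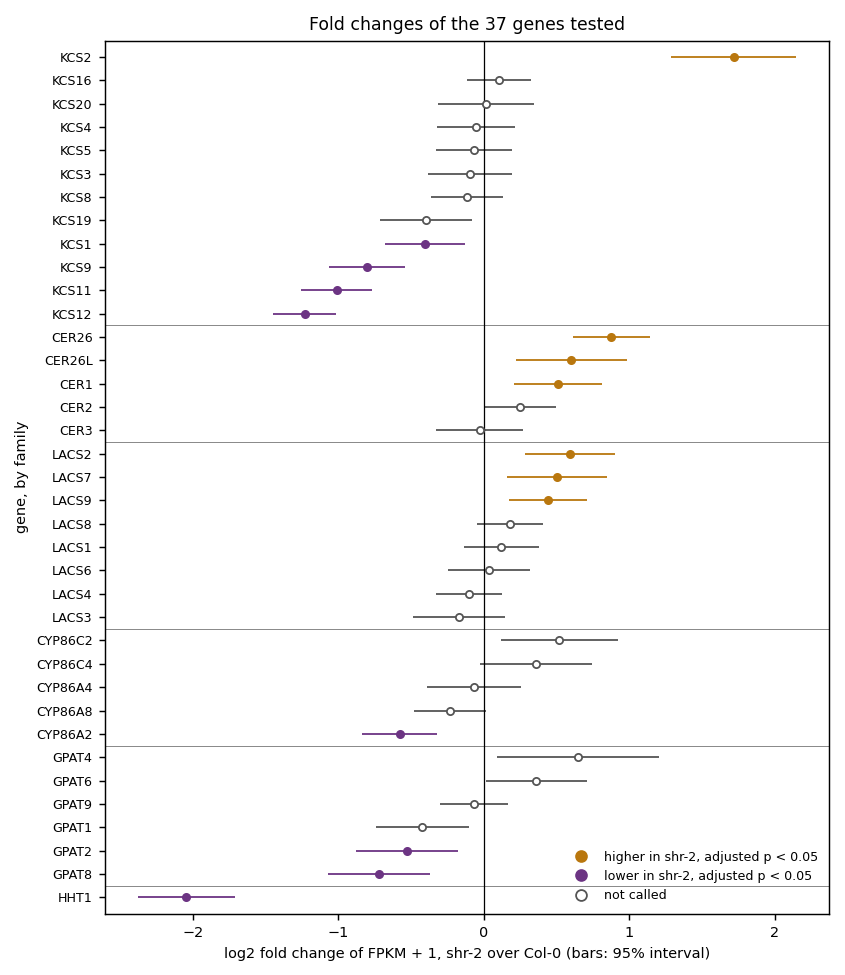
Log2 fold change of FPKM + 1, shr-2 over Col-0, with its 95% interval from limma, for the 37 genes tested, by family. Filled points passed the test, with KCS2 at 1.72 and HHT1 at -2.04 at the 2 ends, and no gene drawn under a CER or LACS name among those called lower. ABCG12 (CER5), listed under another name and not drawn, was called lower.

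HHT1 (AT5G41040, chromosome 5, 16431304 to 16433305), the feruloyl transferase that links ferulate to the hydroxy acids of suberin, had the largest decrease among the 37 genes tested. It read 0.903 and 0.972 FPKM in shr-2, against 6.47 and 7.54 FPKM in Col-0. The mutant libraries were both low and far from both wild-type libraries, with a ratio of means of 0.134. Means were 0.938 ± 0.0486 FPKM in shr-2 and 7.01 ± 0.758 FPKM in Col-0 (SD, n = 2 each). HHT1 thus reached the filter of 1 FPKM only through Col-0. On the log2(FPKM + 1) scale HHT1 changed by -2.04 (limma, SE 0.13, adjusted p = 0.00109), and the adjusted p stayed between 0.00427 and 0.0165 with any one library left out. HHT1 shares 63 bases with AT5G41050 on the opposite strand, a gene that rose, at 15.7 and 19.8 FPKM in shr-2, against 8.80 and 9.40 FPKM in Col-0 (limma, adjusted p = 0.00986). In whole hypocotyls, fewer cells of a type and less RNA per cell cannot be told apart. All 6 endodermis markers (SCR, MYB36, CASP1, CASP5, ESB1 and PER64) fell too (limma), with a median log2 fold change of -4.93, and none was at 0 in any library. The authors' deposited table called 4 of them lower, and not CASP1 (q = 0.285) or PER64 (q = 0.381). MYB36, CASP1, CASP5 and PER64 averaged under 1 FPKM in shr-2. The part of the 6 markers in the result was not tested.

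The CYP86 and GPAT genes known for suberin were low in this organ, each under 1 FPKM in every library. CYP86A1, the root cytochrome that hydroxylates the end of suberin fatty acids, read 0.0437 and 0.140 FPKM in shr-2, against 0.735 and 0.869 FPKM in Col-0. GPAT5, the acyltransferase of suberin monomers, read 0.0454 and 0.0759 FPKM in shr-2, against 0.317 and 0.418 FPKM in Col-0. Both genotypes were thus low, and the mutant libraries lay below the wild-type libraries in each gene. Counted in fragments, with 1 fragment worth an estimated 0.0380 to 0.0396 FPKM in 1 kb of transcript, CYP86A1 rested on about 1.8 and 5.9 fragments in shr-2, against 31.0 and 38.1 in Col-0. GPAT5 rested on about 2.1 and 3.5 in shr-2, against 14.5 and 19.8 in Col-0. Both had a mean under 1 FPKM and so had no test in the fit described here. With no filter on level the adjusted p was 0.0112 for CYP86A1 and 0.0312 for GPAT5 (limma), and the authors' deposited table called CYP86A1 (q = 0.0153) and did not test GPAT5.

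CYP86B1, which oxidises the very long chains of suberin, read 0.167 and 0.242 FPKM in shr-2, against 0.289 and 0.311 FPKM in Col-0. With no filter its adjusted p was 0.309 (limma). GPAT7, a close relative of GPAT5, read 0 and 0.143 FPKM in shr-2, against 0.101 and 0.171 FPKM in Col-0. Its genotypes overlapped, and no level of it exceeded an estimated 7.6 fragments.

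Other genes of suberin came from a list of 7 partners, of which 2 had a mean of at least 1 FPKM. None rose and 1 fell (limma, with 0 higher and 1 lower also at an unadjusted p under 0.05, and 0 higher and 2 lower in the authors' deposited table). The median log2 fold change of the 2 was -0.42. Over all genes tested, 13.9% were called higher and 13.7% lower (limma). The shares lower were 20.0% at an unadjusted p under 0.05 (limma) and 12.2% in the authors' deposited table. FAR1 (AT5G22500), a reductase that makes the fatty alcohols of suberin, fell to 375 and 294 FPKM in shr-2, against 540.2 and 585 FPKM in Col-0 (limma, log2 fold change -0.76, adjusted p = 0.0214). Its list had 0 lower calls without shr-2 replicate 2 or either Col-0 library. FACT, which esterifies fatty alcohols, read 0.0235 and 0.0260 FPKM in shr-2, against 0.601 and 0.447 FPKM in Col-0. FAR4, another reductase, read 0.0689 and 0.0972 FPKM in shr-2, against 0.305 and 0.617 FPKM in Col-0. FAR5, also a reductase, read 0.0581 and 0 FPKM in shr-2, against 0.289 and 0.109 FPKM in Col-0, and the transporter gene ABCG6 read 0.0601 and 0.187 FPKM in shr-2, against 0.357 and 0.511 FPKM in Col-0. These 4 were named after their values were seen and were too low to enter the fit. ABCG20, the other partner tested, overlapped between genotypes at 5.97 and 6.32 FPKM in shr-2, against 6.23 and 6.93 FPKM in Col-0 (limma, adjusted p = 0.608), and ABCG2 was listed at 0 in all libraries.

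**Figure D3:**
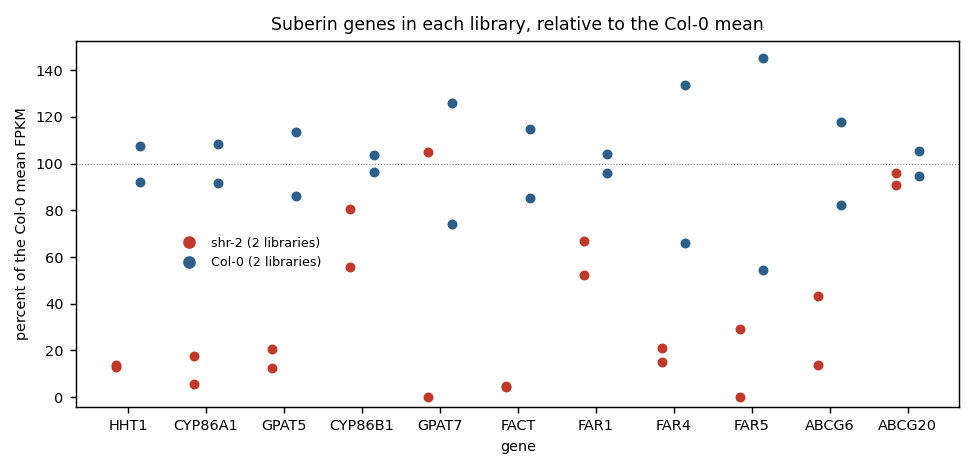
FPKM of 11 suberin genes, the 5 suberin CYP86, GPAT and HHT1 genes and the partner list without ABCG2, in each library as a percentage of the gene's Col-0 mean (dotted line at 100), with shr-2 (red) to the left of Col-0 (blue). The shr-2 libraries of HHT1 stand at 12.9% and 13.9%, and of the genes drawn GPAT7 and ABCG20 overlap between genotypes. Only HHT1, FAR1 and ABCG20 of those drawn averaged 1 FPKM or more. The elongase genes KCS2, KCS20 and KCS9, which also serve suberin, are not drawn. In shr-2, KCS2 was called higher and KCS9 lower, and KCS20 overlapped between genotypes.

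The elongases went both ways. Of 17 KCS genes, 12 were tested, 1 rose, 4 fell and 7 did not pass (limma, with 13.9% higher and 13.7% lower over all genes), with a median log2 fold change of -0.10. KCS2 (AT1G04220, chromosome 1, 1119699 to 1122786), which with KCS20 supplies chains for root suberin and cuticular wax, was the one that rose. It read 27.95 and 36.1 FPKM in shr-2, against 8.03 and 10.0 FPKM in Col-0, a ratio of means of 3.55 (limma, log2 fold change 1.72, SE 0.17, adjusted p = 0.00305). Its adjusted p was 0.00554 to 0.0339 with any one library left out. A long non-coding RNA gene, AT1G04247, lies wholly within KCS2 on the opposite strand (2302 bases) and rose too, to 83.9 and 89.6 FPKM in shr-2, against 24.6 and 22.9 FPKM in Col-0 (limma, adjusted p = 0.000613). The antisense level was 3.003 and 2.48 times that of KCS2 in shr-2 and 3.07 and 2.29 times in Col-0. No source used here says whether reads were counted by strand, so reads of this pair may not be told apart.

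KCS20, the closest copy of KCS2 with 83.6% identity over 74.8% of the KCS2 transcript, had the highest mean of the set over the 4 libraries, although CER1 was above it in both shr-2 libraries. It read 158 and 190.3 FPKM in shr-2, against 163 and 180.2 FPKM in Col-0. Its genotypes overlapped, and its log2 fold change of 0.02 (limma, adjusted p = 0.937) had a 95% interval from -0.31 to 0.34. KCS2 made up 15.002% and 15.97% of the sum of the pair in shr-2, against 4.68% and 5.26% in Col-0. An exact permutation test of that log2 ratio, with 2 libraries against 2, cannot go below a 2-sided p of 0.333, which was the value found.

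KCS12 (AT2G28630, chromosome 2, 12274468 to 12277417) had the largest decrease among the elongases. It read 32.1 and 31.2 FPKM in shr-2, against 76.8 and 74.4 FPKM in Col-0 (limma, log2 fold change -1.23, SE 0.08, adjusted p = 0.0013). KCS11 fell to 11.8 and 12.8 FPKM in shr-2, against 26.3 and 25.4 FPKM in Col-0 (limma, log2 fold change -1.01, adjusted p = 0.00265). In these genes replicates lay close together and the genotypes far apart, and both calls held with any one library left out, at adjusted p of 0.00686 to 0.0364. KCS9, which extends chains for wax, suberin and sphingolipids, read 39.6 and 43.4 FPKM in shr-2, against 69.8 and 76.5 FPKM in Col-0 (limma, log2 fold change -0.80, adjusted p = 0.00572). Its call was lost without Col-0 replicate 2 (adjusted p = 0.0508). KCS1, an elongase of broad range in wax formation, read 116 and 113 FPKM in shr-2, against 163 and 142 FPKM in Col-0. This was the smallest change called (limma, log2 fold change -0.41, adjusted p = 0.0472), and KCS1 passed in none of the fits to 3 libraries, at adjusted p of 0.0892 to 0.203.

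The elongases that did not pass lay between log2 fold changes of -0.40 (KCS19) and 0.10 (KCS16). KCS19 read 38.4 and 39.3 FPKM in shr-2, against 56.9 and 46.5 FPKM in Col-0, with no overlap between the genotypes (limma, adjusted p = 0.0723). KCS8 (70.4 and 71.6 FPKM in shr-2, against 73.0 and 81.0 FPKM in Col-0) was also lower without overlap. KCS5, the close copy of the wax elongase CER6, read 48.5 and 54.5 FPKM in shr-2, against 52.4 and 55.6 FPKM in Col-0, and KCS3 and KCS4 likewise overlapped. KCS16 was above Col-0 in both mutant libraries without passing, at 39.3 and 39.1 FPKM in shr-2, against 37.4 and 35.5 FPKM in Col-0 (limma, adjusted p = 0.423). Of the 5 KCS genes under 1 FPKM, KCS7 was listed at 0 throughout and KCS21 was the highest, at 0.556 and 0.732 FPKM in shr-2, against 1.14 and 1.53 FPKM in Col-0. The authors' deposited table called KCS21 lower (q = 0.0475). KCS17 and KCS15 overlapped between genotypes, at 0.166 to 0.587 FPKM in shr-2 and 0.246 to 0.670 FPKM in Col-0. KCS14, at most 0.0701 FPKM, is 97.5% identical to HIC (KCS13), so its reads are uncertain.

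Of the 5 genes that the table names CER, 3 rose, 0 fell and 2 did not pass (limma), where 13.9% of all genes were called higher. At an unadjusted p under 0.05, 4 were higher and 0 lower, where 20.5% of all genes were higher. The authors' deposited table called 3 higher and 0 lower (12.6% higher over all genes it tested). Their median log2 fold change was 0.51. Of the CER genes listed under other names, ABCG12 (CER5) fell (limma). CUT1 (CER6), ECR (CER10), RRP45B (CER7), FAR3 (CER4) and SUD1 (CER9) did not pass. CER1 (AT1G02205), the core of the alkane-forming complex, read 178 and 209.8 FPKM in shr-2, against 132 and 139 FPKM in Col-0 (limma, log2 fold change 0.51, adjusted p = 0.0324). CER3, its partner in that complex, overlapped between genotypes at 55.4 and 65.8 FPKM in shr-2, against 59.8 and 63.4 FPKM in Col-0 (log2 fold change -0.03, 95% interval -0.33 to 0.27). The CER1 call held without shr-2 replicate 1 (adjusted p = 0.039) and was lost without shr-2 replicate 2 (0.125), Col-0 replicate 1 (0.173) or Col-0 replicate 2 (0.133).

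CER2 and CER26 are related proteins that let the elongases reach the longest wax chains. CER26 (AT4G13840) rose to 11.8 and 13.1 FPKM in shr-2, against 6.34 and 6.27 FPKM in Col-0 (limma, log2 fold change 0.88, SE 0.10, adjusted p = 0.00462), and it stayed below the threshold with any one library left out, at 0.0178 to 0.0495. Its relative CER26L read 4.20 and 4.62 FPKM in shr-2, against 2.21 and 2.95 FPKM in Col-0 (limma, adjusted p = 0.0394), and it passed in none of the fits to 3 libraries (0.0646 to 0.151). CER2, the most abundant of the 3, read 89.0 and 95.1 FPKM in shr-2, against 74.1 and 80.2 FPKM in Col-0. Its genotypes did not overlap and it did not pass (limma, adjusted p = 0.116). The 3 stomatal lineage markers, which share the epidermis with these genes, summed to 14.3 and 14.5 FPKM in shr-2, against 9.43 and 8.40 FPKM in Col-0. TMM among them rose (limma, adjusted p = 0.0126), and FAMA and EPF2 did not pass. At an unadjusted p under 0.05, 2 were higher (20.5% of all genes), as in the authors' deposited table (12.6%), which called TMM and EPF2. EPF2 averaged 0.875 FPKM in Col-0 and reached the filter of 1 FPKM only through shr-2. The median log2 fold change of the epidermis markers was 0.10, and the part of either list in these results was not tested.

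Of 9 LACS genes, 8 were tested, 3 rose, 0 fell and 5 did not pass (limma), where 13.9% of all genes were called higher. The counts were also 3 higher and 0 lower at an unadjusted p under 0.05, where 20.5% of all genes were higher. They were the same in the authors' deposited table (12.6% higher over all genes it tested). Their median log2 fold change was 0.15. LACS2 (AT1G49430), which activates fatty acids for cutin, read 19.4 and 22.5 FPKM in shr-2, against 12.7 and 14.4 FPKM in Col-0 (limma, log2 fold change 0.59, adjusted p = 0.0222). The call of LACS2 held without shr-2 replicate 1 (0.0418) and was lost without shr-2 replicate 2 (0.0998), Col-0 replicate 1 (0.127) or Col-0 replicate 2 (0.0783). LACS1, which acts with LACS2 in the cuticle and is also known as CER8, overlapped between genotypes at 26.7 and 24.4 FPKM in shr-2, against 22.4 and 24.4 FPKM in Col-0 (log2 fold change 0.12, 95% interval -0.14 to 0.38).

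The other LACS genes that rose work outside the cuticle. LACS7, a peroxisomal enzyme of fatty acid breakdown, read 24.7 and 25.9 FPKM in shr-2, against 15.6 and 19.7 FPKM in Col-0 (limma, adjusted p = 0.047). LACS9, at the plastid envelope, read 16.01 and 15.7 FPKM in shr-2, against 10.7 and 12.1 FPKM in Col-0 (adjusted p = 0.0342). Neither passed in any fit to 3 libraries, at adjusted p of 0.0558 to 0.166. LACS6, the peroxisomal partner of LACS7, overlapped between genotypes at 38.3 and 42.9 FPKM in shr-2, against 37.4 and 41.8 FPKM in Col-0. LACS4, the most abundant of the family, read 101 and 98.5 FPKM in shr-2, against 104 and 110.3 FPKM in Col-0 (adjusted p = 0.45). LACS8, at 20.0 and 19.3 FPKM in shr-2, against 17.0 and 17.4 FPKM in Col-0, and LACS3, at 5.12 and 4.92 FPKM in shr-2, against 5.26 and 6.30 FPKM in Col-0, did not pass (limma, adjusted p = 0.195 and 0.369). LACS5 was listed at 0 in all 4 libraries.

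Among the CYP86 cytochromes, 5 of 10 were tested, 0 rose, 1 fell and 4 did not pass (limma), a share called of 20%, below the 27.6% of all genes. The median log2 fold change of the 5 was -0.07. At an unadjusted p under 0.05 (limma), 1 was higher and 1 lower, where 20.5% of all genes were higher and 20.0% lower. The authors' deposited table called 1 higher and 2 lower, where 12.6% of all genes it tested were higher and 12.2% lower. Its 2 lower calls, CYP86A1 and CYP86A7, were among the genes not tested here. CYP86A2 (AT4G00360), a hydroxylase of cutin monomers, was the one that fell. It read 28.04 and 31.6 FPKM in shr-2, against 45.9 and 43.9 FPKM in Col-0 (limma, log2 fold change -0.58, SE 0.10, adjusted p = 0.0145). The authors' deposited table did not call it (q = 0.158), and its call held without shr-2 replicate 2 (0.0349) and was lost without shr-2 replicate 1 (0.0661), Col-0 replicate 1 (0.0955) or Col-0 replicate 2 (0.0775). The long non-coding RNA gene AT4G03585 lies within CYP86A2 on the opposite strand (782 bases) and fell as well, to 184 and 236 FPKM in shr-2, against 302 and 392.5 FPKM in Col-0 (limma, adjusted p = 0.0456). The antisense level was 6.57 and 7.48 times that of CYP86A2 in shr-2 and 6.57 and 8.94 times in Col-0, and reads of this pair too may not be told apart. PHT4, which shares 127 bases with CYP86A2 on that strand, rose, at 43.0 and 49.9 FPKM in shr-2, against 27.8 and 31.2 FPKM in Col-0 (adjusted p = 0.0173).

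CYP86A8, a hydroxylase also known as LACERATA, read 20.7 and 20.0 FPKM in shr-2, against 22.9 and 25.3 FPKM in Col-0 (limma, adjusted p = 0.145). CYP86A4, the closest copy of CYP86A2, overlapped between genotypes at 8.66 and 10.3 FPKM in shr-2, against 9.38 and 10.6 FPKM in Col-0 (95% interval of the log2 fold change -0.39 to 0.26). CYP86C2 read 3.39 and 3.32 FPKM in shr-2, against 2.41 and 1.70 FPKM in Col-0. It did not pass here (adjusted p = 0.0674) and was called higher in the authors' deposited table (q = 0.0378). CYP86C4 read 1.90 and 2.51 FPKM in shr-2, against 1.474 and 1.499 FPKM in Col-0 (limma, adjusted p = 0.145), and its neighbour CYP86C3 averaged under 1 FPKM. CYP86A7, under 1 FPKM, read 0.160 and 0.223 FPKM in shr-2, against 0.548 and 0.530 FPKM in Col-0, and the authors' deposited table called it lower (q = 0.0479). CYP86C1 did not exceed 0.0181 FPKM.

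Of the acyltransferases of cutin, GPAT8 fell in the mutant and GPAT4 did not pass the test. Of 8 GPAT genes 6 were tested, 0 rose, 2 fell and 4 did not pass (limma, with 13.7% of all genes lower). The median log2 fold change of the 6 was -0.24. At an unadjusted p under 0.05 (limma), 2 were higher and 3 lower, where 20.5% of all genes were higher and 20.0% lower. The authors' deposited table called 1 higher and 2 lower, where 12.6% of all genes it tested were higher and 12.2% lower. GPAT4 and GPAT8 act redundantly in cutin formation and are 83.0% identical over 75.2% of the GPAT8 transcript. GPAT8 (AT4G00400, chromosome 4, 173953 to 176870) fell to 36.1 and 43.6 FPKM in shr-2, against 61.0 and 71.2 FPKM in Col-0 (limma, log2 fold change -0.72, SE 0.14, adjusted p = 0.0188). Its call held without shr-2 replicate 2 (0.0272) and was lost without shr-2 replicate 1 (0.0646), Col-0 replicate 1 (0.0666) or Col-0 replicate 2 (0.108). GPAT4 (AT1G01610, chromosome 1, 221642 to 224351) read 34.2 and 50.8 FPKM in shr-2, against 23.5 and 29.3 FPKM in Col-0. Both mutant libraries were above both wild-type libraries, but they differed widely from each other and GPAT4 did not pass (log2 fold change 0.65, SE 0.22, adjusted p = 0.0867), whereas it passed without shr-2 replicate 1 (0.0284) and in the authors' deposited table (q = 0.00109).

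GPAT4 made up 48.7% and 53.8% of the sum of the pair in shr-2, against 27.8% and 29.2% in Col-0. The sum itself was 70.3 and 94.4 FPKM in shr-2, against 84.5 and 100.5 FPKM in Col-0, so the genotypes overlapped in the sum and not in the share. The log2 ratio of GPAT4 to GPAT8 differed by 1.40 between genotypes, with an exact permutation p of 0.333, the smallest that 2 libraries against 2 allow. On chromosome 1, CYP86A4 and GPAT4 are direct neighbours with 355 bases between them and no gene in that gap, and on chromosome 4, their closest copies CYP86A2 and GPAT8 lie 10929 bases apart with 3 genes between them. In the limma fit both genes of the chromosome 4 pair fell in shr-2, and of the chromosome 1 pair neither passed the test. The authors' deposited table differed, with GPAT8 called lower (q = 0.000587), GPAT4 called higher (q = 0.00109) and neither CYP86A2 (q = 0.158) nor CYP86A4 (q = 0.885) called.

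**Figure D4:**
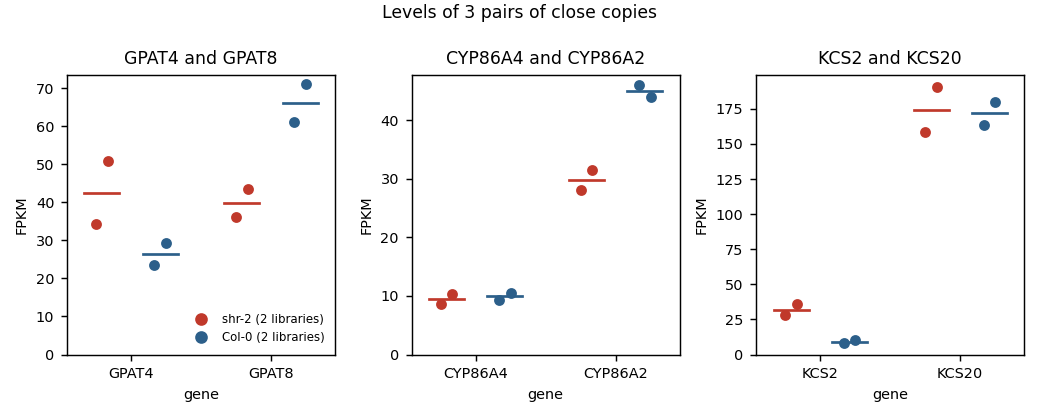
FPKM in each library (points) and the mean of 2 libraries (lines) for 3 pairs of close copies, shr-2 (red) left of Col-0 (blue) for each gene. The mean of GPAT4 is higher and that of GPAT8 lower in shr-2, CYP86A4 and KCS20 overlap between genotypes, CYP86A2 is lower and KCS2 higher.

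Of the remaining acyltransferases, GPAT2 alone was called. Its mean was 0.757 FPKM in shr-2 and 1.54 FPKM in Col-0, so it reached the filter of 1 FPKM only through Col-0. GPAT2, a mitochondrial form, read 0.775 and 0.739 FPKM in shr-2, against 1.45 and 1.62 FPKM in Col-0 (limma, log2 fold change -0.53, adjusted p = 0.0444), and passed in none of the fits to 3 libraries (0.0731 to 0.115). GPAT1 read 2.93 and 3.28 FPKM in shr-2, against 4.21 and 4.78 FPKM in Col-0 (adjusted p = 0.064). GPAT6, the cutin acyltransferase of flowers, read 1.26 and 1.28 FPKM in shr-2, against 0.788 and 0.751 FPKM in Col-0 (limma, unadjusted p = 0.0439, adjusted p = 0.112). Its mean was 1.27 FPKM in shr-2 and 0.770 FPKM in Col-0, so GPAT6 reached the filter of 1 FPKM only through shr-2. GPAT9 did not pass, at 29.4 and 29.9 FPKM in shr-2, against 29.9 and 32.4 FPKM in Col-0 (95% interval of the log2 fold change -0.30 to 0.17).

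Partner genes outside these families were read from lists. Over all genes tested, 13.9% were called higher and 13.7% lower (limma). The shares lower were 20.0% at an unadjusted p under 0.05 (limma) and 12.2% in the authors' deposited table. Of 10 genes of wax elongation and export, 9 were tested, 0 rose, 1 fell and 8 did not pass (limma, with the same counts of 0 and 1 at an unadjusted p under 0.05 and in the authors' deposited table), with a median log2 fold change of -0.00178. WSD1, the wax ester synthase, was the one that fell, to 0.210 and 0.373 FPKM in shr-2, against 6.21 and 6.16 FPKM in Col-0 (limma, log2 fold change -2.48, SE 0.13, adjusted p = 0.000711). It reached the filter of 1 FPKM only through Col-0. Of 5 genes of cutin acylation and assembly, 0 were called in either direction (limma, with 0 higher and 1 lower at an unadjusted p under 0.05 and 0 in the authors' deposited table). LTL1 and HTH had the lowest log2 fold changes of them, -0.32 and -0.29 (limma, adjusted p = 0.163 and 0.107), and were named after their values were seen.

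Of 16 regulators of cuticle and suberin, 6 were tested, 0 rose, 3 fell and 3 did not pass, with a median log2 fold change of -0.37 (limma, with 0 higher and 3 lower at an unadjusted p under 0.05, and 0 higher and 4 lower in the authors' deposited table). Over all genes tested, 13.9% were called higher and 13.7% lower (limma). The shares lower were 20.0% at an unadjusted p under 0.05 and 12.2% in the authors' deposited table. MYB92, a MYB factor of suberin genes in roots, fell to 2.88 and 3.64 FPKM in shr-2, against 16.3 and 17.1 FPKM in Col-0 (log2 fold change -2.06, adjusted p = 0.000994). DEWAX, a repressor of wax genes, fell to 22.4 and 22.1 FPKM in shr-2, against 60.6 and 39.1 FPKM in Col-0 (adjusted p = 0.02). MYB30, an activator of very-long-chain fatty acid genes, fell to 51.7 and 53.6 FPKM in shr-2, against 68.9 and 73.5 FPKM in Col-0 (adjusted p = 0.0242). Without shr-2 replicate 1 the list had 1 lower call, and without any one of the other libraries it had 2. MYB93, the close relative of MYB92, was listed at 0 in both shr-2 libraries, against 0.718 and 0.668 FPKM in Col-0, was too low to enter the fit and was named after its values were seen. The genotypes did not overlap in 66.2% of all genes tested, and no such share was computed for genes too low for the fit. Of the 10 regulators too low for the fit, 3 lay below Col-0 in both shr-2 libraries, 2 lay above and 5 overlapped. Those above were SHN3, at 0.347 and 0.387 FPKM in shr-2, against 0.103 and 0.134 FPKM in Col-0, and MYB41, at 0.0364 and 0.220 FPKM in shr-2, against 0.0360 and 0 FPKM in Col-0.

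The table lists 10 further genes of these families under other names, which the choice by name left out. At an unadjusted p under 0.05 (limma), 1 was higher and 3 were lower, where 20.5% of all genes were higher and 20.0% lower. The authors' deposited table called 0 higher and 2 lower, where 12.6% of all genes it tested were higher and 12.2% lower. Of the 10 genes, 9 were tested, 0 rose and 2 fell (limma), where 13.9% of all genes were called higher and 13.7% lower. Those that fell were the wax exporter ABCG12 (CER5), at 51.3 and 63.0 FPKM in shr-2, against 98.0 and 105 FPKM in Col-0 (adjusted p = 0.0104), and GPAT3, at 32.8 and 35.6 FPKM in shr-2, against 68.8 and 67.1 FPKM in Col-0 (adjusted p = 0.00271). CUT1 (CER6), the main elongase of stem wax, did not pass, at 306 and 372 FPKM in shr-2, against 399 and 438 FPKM in Col-0 (adjusted p = 0.161).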

How the data were processed

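FPKM values per gene and library were deposited by the authors. Per the submitters' processing notes they used CASAVA 1.8.2, TopHat2 2.0.13 and Cuffdiff 2.2.0 with TAIR10. Araport11 models were counted, per the file headers. The authors' deposited comparison table also holds mean FPKM per genotype, log2 fold changes, unsigned fold ratios, a test score and p-values with q-values, which were quoted and not recomputed. Scaling between libraries and use of strand are not given in the sources used here.

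Genes averaging 1 FPKM or more across all libraries, and SHR, were fitted on log2(FPKM + 1) with limma 3.58.1 (R 4.3.3, eBayes with trend, 2-sided, 2 residual and 3.02 prior degrees of freedom), both genotypes together, with Benjamini-Hochberg adjustment over all 19920 genes. The pseudocount understates changes of low genes. No read counts were used, and depth was estimated from the lowest FPKM values. It covers counting only and is bounded by the window searched. Deposited loci contained the TAIR10.1 gene for 99.98% of genes and for all 50 genes described, 11 of which overlap another model, none on the same strand. Copies were sought with blastn 2.17.0.

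The set and the gene lists (60 entries, all paired with their identifiers) were chosen with earlier results of these data known. Every called gene of the set was named, then abundant, closely related or best known ones that were not called, and up to 4 called genes of each list. Other members were added after their values were seen, to account for all 50. The fit was tested on simulated data. Alternatives were pseudocounts, filters, scalings, no trend, a replicate block, libraries left out and the authors' calls.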

Additional observations from a re-analysis of the deposited data

How the results depend on the processing

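Of the 15 calls, those of CER26, HHT1, KCS12, KCS2 and KCS11 held with any one library left out, and 10 were lost in at least 1 such fit. Leaving out a library moved the number called higher to 2 to 5 (7 with all) and lower to 3 to 6 (8 with all), and over all genes to 964 to 2053 higher and 1094 to 1799 lower. Suberin partners called lower were 0 to 1, and regulators called lower 1 to 2. With the replicate block, 10 of the set were called higher and 10 lower (GPAT4, at an adjusted p of 0.00433 in limma, CER2, CYP86C2, GPAT1 and KCS19 were gained), over all genes 4486 and 4243, in the wax list 1 higher and 2 lower, and in the cutin list 1 lower. Labels do not say that a number marks a shared batch, and same-numbered deviations correlated at 0.305 across genes. With no filter 2 suberin partners were lower and 1 regulator higher, at a mean of at least 5 FPKM 0 wax genes were lower, and the authors called 2 suberin partners lower in their deposited table. The cause was not tested.

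No called change reversed. Uncalled genes near 0 changed sign when a library was left out. Their log2 fold changes then ran from -0.15 to 0.094 for CER3, from -0.18 to 0.048 for CYP86A4, from -0.12 to 0.148 for KCS20, from -0.21 to 0.018 for KCS3, from -0.15 to 0.015 for KCS5, from -0.12 to 0.019 for KCS4 and from -0.044 to 0.115 for LACS6. Quantile normalization gave -0.011 for KCS20. Pseudocounts of 0.1 and 0.5 changed no call among the 37 genes, median centring and quantile normalization lost 1 call each, and no filter lost 3 and added 1. Without a trend in limma 1 call was added, and KCS1 (adjusted p = 0.0576) and LACS7 (0.0556) were not called. Levels under about 0.1 FPKM rest on few fragments.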
